A study of Homo sapiens with 16 samples.

Results

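The mRNAs described here act in or control the handling of iron by the cell, and were FTH1, FTL, SLC40A1, TFRC, SLC11A2, ACO1 and IREB2. They were taken by symbol from the 58302 gene identifiers of the read count tables, and all 7 passed the filter on low counts in every comparison. The libraries came from HEK293, a cell line of human embryonic kidney. Ctrl cells were compared with siRNAG5 cells, in which Gemin5, an RNA-binding protein of the SMN complex, had been silenced with 100 nM of a small interfering RNA. Whether Ctrl cells received a control siRNA, as the methods say, or none, as the labels say, could not be settled. From 4 independent samples of each, polyadenylated RNA of the cytoplasmic lysate (Input) and of the pooled heavy gradient fractions 8 to 12 (Polysome) was sequenced, giving 16 libraries in 4 groups of 4. All groups were of one cell line in one growth medium, with no iron salt or iron chelator named for any of them.

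Cells adjust iron uptake and storage largely after transcription. Iron regulatory proteins 1 and 2 are encoded by ACO1 and IREB2. When iron is scarce, they bind a hairpin, the iron-responsive element, in particular mRNAs. Bound near the 5′ end, they block the start of translation, as in the mRNAs of the ferritin heavy and light chains (FTH1 and FTL), which form the iron storage shell, and of ferroportin (SLC40A1), the iron exporter. Bound in the 3′ untranslated region (UTR), they protect the mRNA from decay, as in the mRNA of the transferrin receptor (TFRC), through which cells take up transferrin iron. SLC11A2 encodes the iron transporter DMT1 and carries such a hairpin in the 3′UTR of some of its transcripts. ACO1 protein carries an iron-sulfur cluster and acts as a cytosolic aconitase when iron is plentiful, whereas IREB2 protein is then degraded.

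The hairpins are shown because they set these mRNAs apart from nearly all others. In the reference transcripts (GENCODE v44, GRCh38) the search asked for the loop CAGTGN, 5 paired bases below it, an unpaired C and 5 further paired bases, with G-T pairs and 1 unpaired position allowed. It was run on the mRNA strand. The first 3 sequences lie in 5′UTRs, and capitals mark the loop.
FTH1: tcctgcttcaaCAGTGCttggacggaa
FTL: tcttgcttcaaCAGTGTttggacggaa
SLC40A1: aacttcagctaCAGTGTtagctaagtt
They occupy exon 1 of their canonical transcripts, at chr11:61967575-61967601 on the minus strand for FTH1, chr19:48965336-48965362 on the plus strand for FTL and chr2:189580662-189580688 on the minus strand for SLC40A1. The hairpin began 34 bases from the 5′ end of the FTH1 mRNA, 28 bases from that of FTL and 99 bases from that of SLC40A1. Of 17801 canonical 5′UTRs, 6 (0.0337%) held this pattern, and the other 3 belonged to ALAS2, ENC1 and NWD2.

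In the 3′UTR of TFRC the search found 4 such hairpins in the last of 19 exons, on the minus strand of chromosome 3. They are listed from the 5′ end of the mRNA.
TFRC 3′UTR base 936: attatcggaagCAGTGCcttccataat
TFRC 3′UTR base 1340: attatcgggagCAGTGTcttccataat
TFRC 3′UTR base 1405: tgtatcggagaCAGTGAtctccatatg
TFRC 3′UTR base 1452: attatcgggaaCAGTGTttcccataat
They span chr3:196050980-196051006, chr3:196050576-196050602, chr3:196050511-196050537 and chr3:196050464-196050490. Of 19095 canonical 3′UTRs, 21 (0.11%) held at least 1. Both relaxed rules that follow were chosen after these sequences had been seen. With the loop CAGAGN, TFRC had a hairpin at base 886 of the 3′UTR (chr3:196051030-196051056), and 0.12% of 3′UTRs held one. With CAGTGN and 1 extra base in the upper stem, SLC11A2 had one at base 29 of its 3′UTR (chr12:50988269-50988296, minus strand), and 0.225% of 3′UTRs held one.
TFRC 3′UTR base 886: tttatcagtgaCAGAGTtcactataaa
SLC11A2 3′UTR base 29: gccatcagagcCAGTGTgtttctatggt
No match was found in the UTRs of ACO1 or IREB2. A match is a match of letters and pairing, and binding was not measured in these data.

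**Figure D1:**
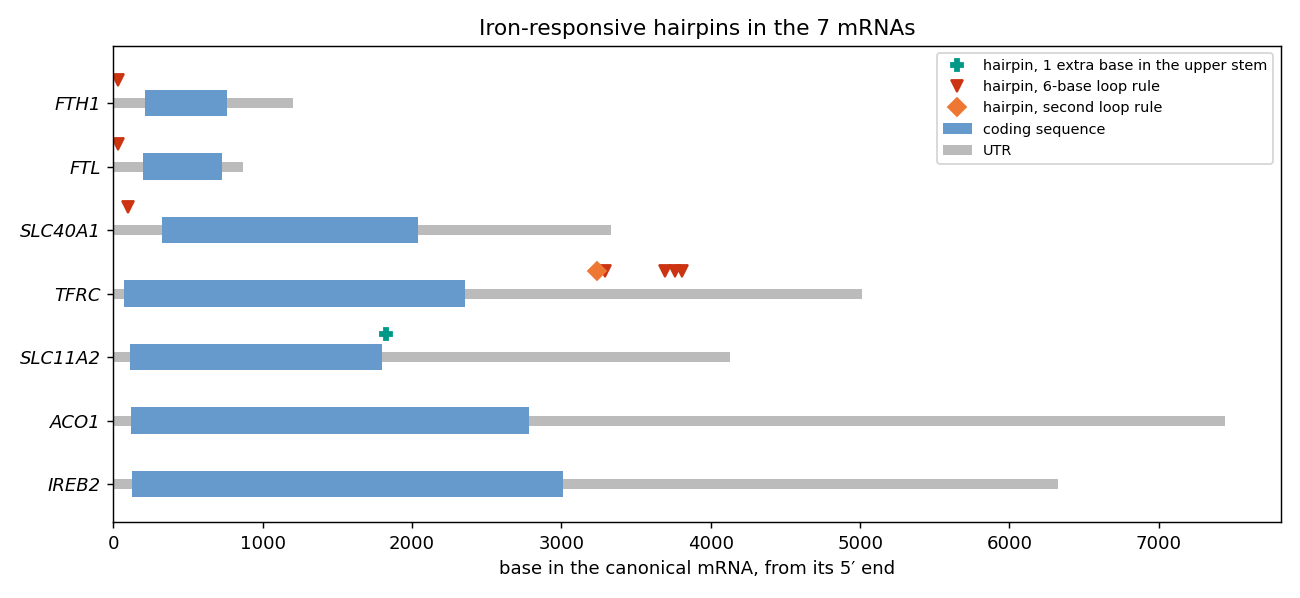
Canonical mRNAs of the 7 genes drawn to scale, with the position in bases from the 5′ end on the horizontal axis, coding sequence as thick blue bars, UTRs as thin grey bars and hairpins as triangles (CAGTGN), a diamond (CAGAGN) or a plus sign (1 extra base). The single hairpins of FTH1, FTL and SLC40A1 sit in the 5′UTR, those of TFRC and SLC11A2 in the 3′UTR, and ACO1 and IREB2 have none.

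GEMIN5 served as the check of the silencing. Its log2 FC in siRNAG5 came to -1.40 in Input (adjusted p = 3.11e-10 by edgeR) and -1.44 in Polysome (adjusted p = 0.00477 by edgeR), and Ctrl and siRNAG5 libraries did not overlap. Reads on genes numbered 11145324 to 24511299 per library. Between 4.88 and 6.04% of the reads of an Input library and between 21.2 and 42.4% of those of a Polysome library aligned to several places and were counted on no gene. HEK293 markers had reads for 7 of 7 genes in every group. The 12 liver markers summed to 27, 15, 1563 and 1285 reads in Input Ctrl 1 to 4 and to 1337 to 1846 reads in the Polysome Ctrl libraries, but to at most 21 reads in any siRNAG5 library. Erythroid markers summed to at most 45 reads and macrophage markers to at most 43 reads in a library, the highest sums being in Polysome Ctrl. Brain markers summed to at most 77 reads, the highest sums being in Polysome siRNAG5. ALAS2 and HBG1 were at 0 throughout. Polysome Ctrl 1, siRNAG5 1 and siRNAG5 4 stood apart from the other Polysome libraries in earlier results of these data, so values without them are given where they matter. These are bulk libraries, in which fewer cells holding an mRNA and less of it in each cell cannot be told apart.

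Levels between genes were compared as CPM (reads of a gene as a share of the reads on genes in its library, with library sizes scaled by TMM over the 16 libraries) per kilobase of the canonical mRNA. In Input Ctrl the ferritin mRNAs stood far above the rest, with FTH1 at 3230 ± 162 and FTL at 1797 ± 50.2 CPM per kilobase (SD, n = 4 each). TFRC followed at 5.47 ± 0.665, SLC11A2 at 3.54 ± 0.45, IREB2 at 2.74 ± 0.19, ACO1 at 2.37 ± 0.194 and SLC40A1 at 0.70 ± 0.134 CPM per kilobase (SD, n = 4 each). Only IREB2 and ACO1, neighbours in this order, had overlapping libraries. In Polysome Ctrl the order of the lower 5 changed. IREB2 at 4.71 ± 1.15 and TFRC at 4.53 ± 0.949 CPM per kilobase overlapped each other, and both overlapped SLC11A2 at 3.26 ± 0.313. ACO1 at 1.25 ± 0.19 and SLC40A1 at 0.401 ± 0.0771 CPM per kilobase lay below them without overlap (SD, n = 4 each).

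**Figure D2:**
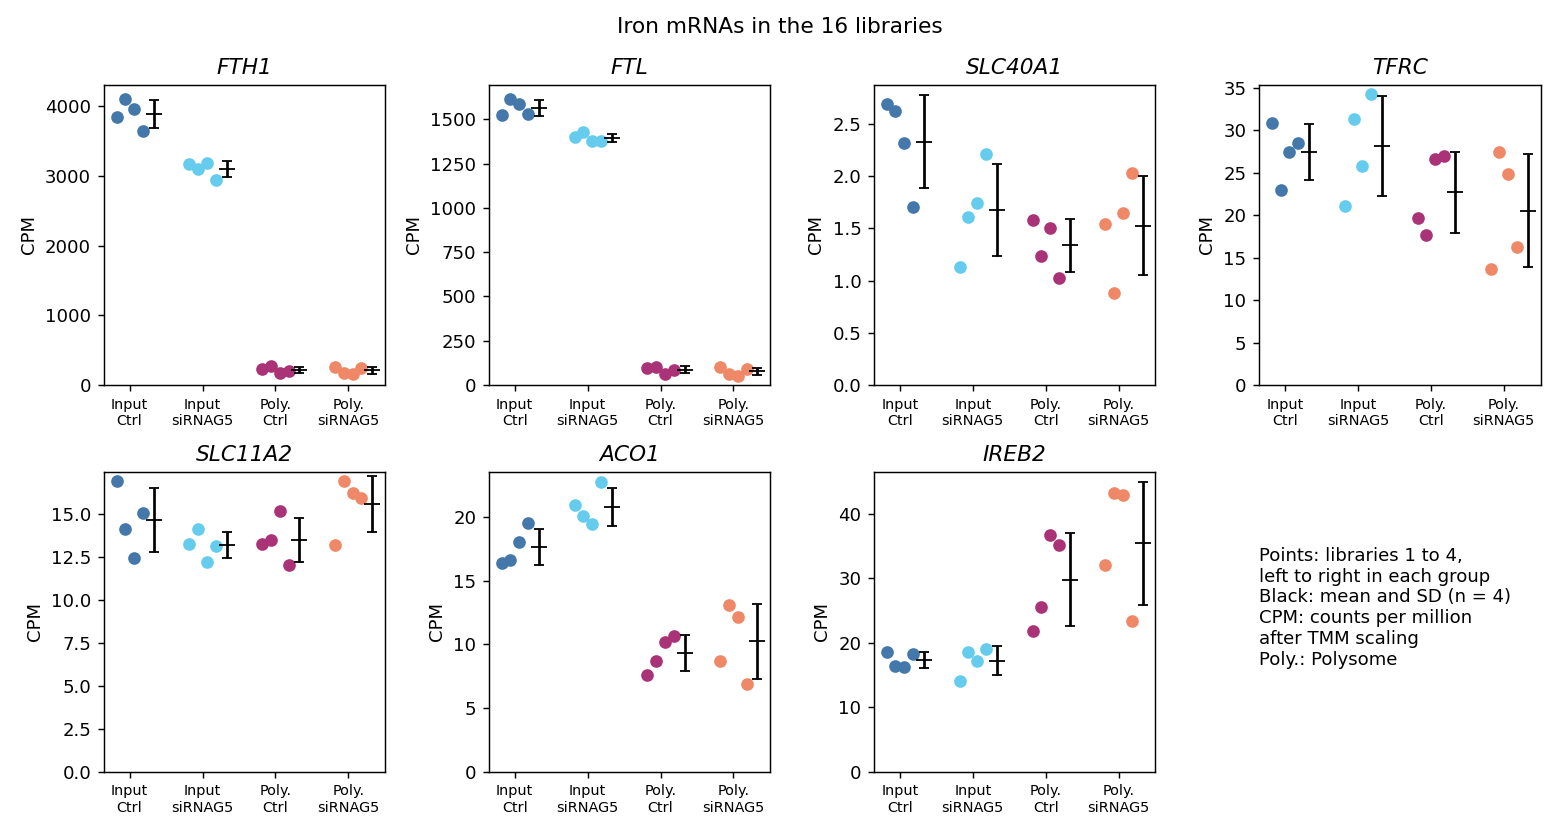
CPM of each mRNA (vertical axis, from 0) in the 4 libraries of each group, with the mean and SD in black. FTH1 and FTL drop from 1376 CPM or more in Input to at most 270.1 and 102.7 CPM in Polysome, ACO1 is lower and IREB2 higher in Polysome, and the treatments differ little.

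Polysome loading was taken as the log2 FC of Polysome against Input within a treatment. It compares the TMM-scaled CPM of an mRNA in the polysomal fractions with that in the lysate. The value therefore rests on the scaling between the fractions, and a fit without scaling was not run. It states neither the plain share of reads nor the part of the molecules of an mRNA that carry ribosomes. In Ctrl cells, 4 of the 7 mRNAs were called lower in Polysome (an adjusted p below 0.05, with a log2 FC more than 0.5 from 0), where 18.2% of all 14958 genes tested were, and 1 was called higher, where 19.4% of all genes were. On the scaled CPM, the groups did not overlap for these 5 of the 7, against 42% of all genes. The ferritin mRNAs had the largest difference by far, ACO1 and SLC40A1 were lower by less than 1 log2 unit, and IREB2 was the mRNA that was higher. The median log2 FC was -0.80 over the 7 mRNAs and -0.04 over all genes.

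FTH1 had 3843, 4105, 3954 and 3643 CPM in Input Ctrl 1 to 4. In Polysome Ctrl 1 to 4 it had 227.5, 270.1, 165.4 and 198.2 CPM. Each Polysome library thus lay more than 10-fold below each Input library. FTH1 was 18.1-fold lower in Polysome, or -4.17 as log2 FC (standard error 0.19, adjusted p = 5.33e-11 by edgeR). The counts behind it were large, at 38449 or more reads in each Input Ctrl and 2519 or more in each Polysome Ctrl library.

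FTL, the light chain, had 1526, 1616, 1588 and 1531 CPM in Input Ctrl 1 to 4 and 98.0, 102.7, 61.4 and 83.0 CPM in Polysome Ctrl 1 to 4. Its log2 FC was -4.18 (standard error 0.20, adjusted p = 5.33e-11 by edgeR), the same size as that of the heavy chain within their errors. Library by library the ferritin mRNAs moved together: FTH1 and FTL were both highest in Polysome Ctrl 2 and both lowest in Polysome Ctrl 3. In siRNAG5 cells the loading of FTH1 was -3.87 (standard error 0.19, adjusted p = 2.87e-11 by edgeR). That of FTL was -4.19 (standard error 0.20, adjusted p = 2.87e-11 by edgeR). Liver mRNAs, which were present in the Polysome Ctrl libraries, were nearly absent from all siRNAG5 libraries, but the fit held the Ctrl libraries too. With only the 8 siRNAG5 libraries, FTH1 was at -3.79 and FTL at -4.11 (adjusted p = 1.55e-07 for both by edgeR). The part of liver reads in the loading values was not tested.

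Among 12431 protein-coding genes tested, 1 had a lower log2 FC than FTL in Ctrl, the mitochondrially encoded MT-ND3, which is translated inside mitochondria. For FTH1 it was 2, MT-ND3 and FTL. In siRNAG5, 0 coding genes lay below FTL and 1, FTL itself, lay below FTH1. Over all 14958 genes, with non-coding RNAs and pseudogenes, 15 had a lower log2 FC than FTH1 in Ctrl and 19 in siRNAG5. The ferritin reading frames are short, and their values were set beside those of other short mRNAs, a comparison added after the values had been seen. The coding length is 552 bases in FTH1 and 528 bases in FTL. The 1549 tested mRNAs with fewer than 600 coding bases had a median log2 FC of -0.06 in Ctrl, with 10% of them below -0.67. Across all coding genes, which are not independent replicates, the Pearson correlation of loading with log10 coding length was 0.0697.

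**Figure D3:**
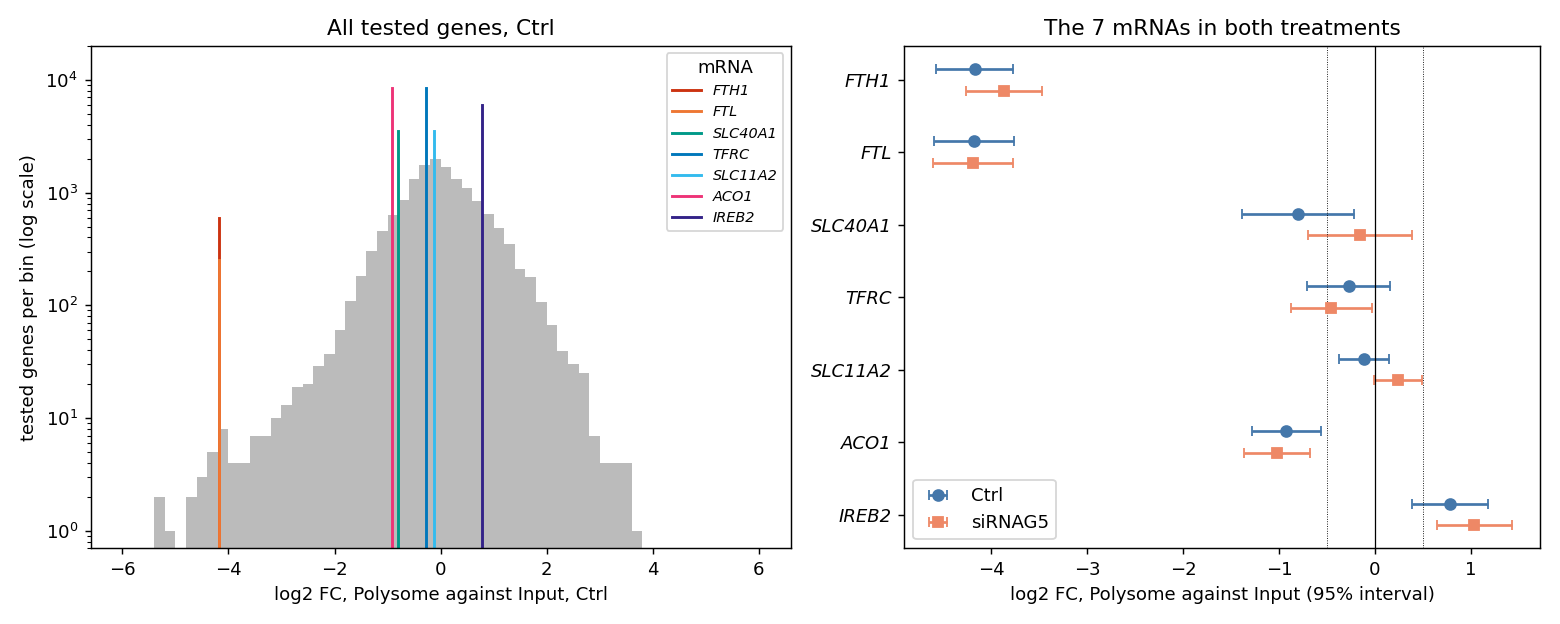
Left, number of tested genes (log scale) by log2 FC of Polysome against Input in Ctrl, with the 7 mRNAs as vertical lines whose height has no meaning. Right, the same log2 FC with 95% intervals for each mRNA in Ctrl and siRNAG5, dotted lines at 0.5 either side of 0. FTH1 and FTL lie near -4 in both treatments, at the far left of the distribution, and the intervals of Ctrl and siRNAG5 overlap for each mRNA.

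**Figure D4:**
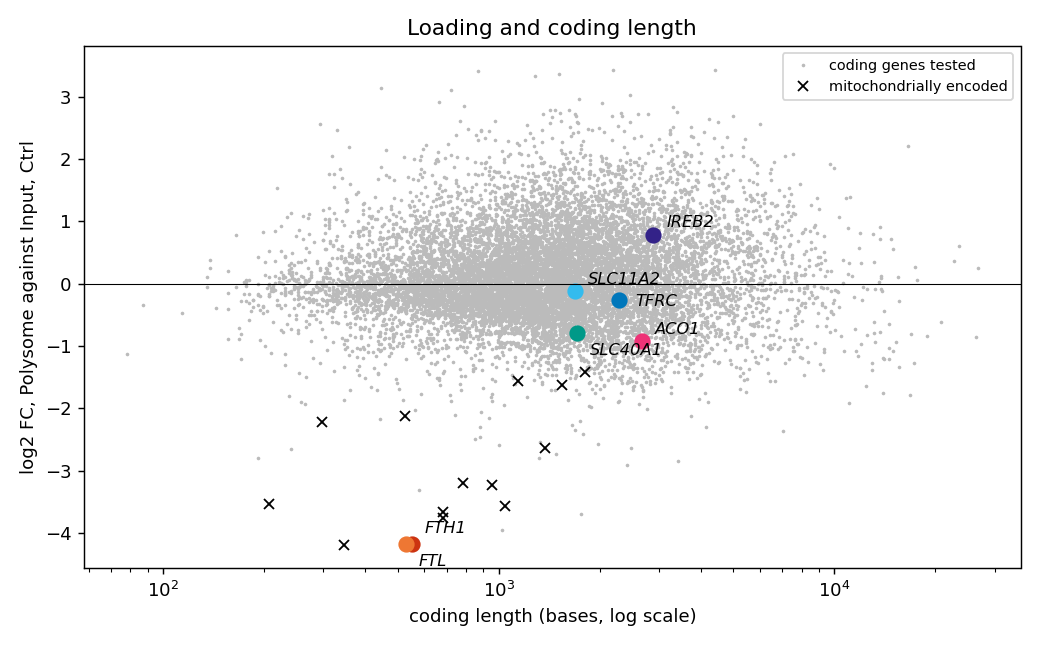
Log2 FC of Polysome against Input in Ctrl (vertical axis) by coding length in bases (log scale) for the coding genes tested, with mitochondrially encoded mRNAs as crosses and the 7 mRNAs as coloured points. FTH1 and FTL lie at -4.17 and -4.18, below the other nuclear mRNAs of similar length, near mitochondrial mRNAs.

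The genome holds many processed copies of the ferritin mRNAs, and reads that could not be placed were lost more often from Polysome libraries, where 21.2 to 42.4% of reads aligned to several places. The part of these reads in the ferritin values was not tested. The annotation names 25 FTH1 and 16 FTL pseudogenes, of which 17 and 7 had reads. Their reads came to 0.543 to 0.799% of the ferritin reads in Input and to 0.755 to 1.29% in Polysome. The 9 ferritin pseudogenes that passed the filter were all called lower in Polysome in both treatments, with a log2 FC from -5.21 for FTH1P8 to -3.10 for FTH1P20 in Ctrl. Of all genes, 18.2% were called lower in Ctrl and 25.4% in siRNAG5. The 9 had few reads over the Polysome Ctrl libraries, from 4 for FTH1P8 to 33 for FTH1P20. In the fit of the Polysome libraries alone, 1 of them, FTH1P20, passed the filter. The others passed only through Input, where they are high, so that their direction was set by the filter. The count of pseudogenes called lower is therefore not read as a result about them. BEST1, which overlaps FTH1 on the opposite strand, had 84 reads in Input Ctrl and 8 in Polysome Ctrl. Its log2 FC was -3.69 in Ctrl (standard error 0.54, adjusted p = 1.91e-05 by edgeR). In siRNAG5 it was -1.53 (standard error 0.40, adjusted p = 0.00344 by edgeR), where FTH1 was at -3.87. The libraries were stranded, and whether the counting used strand is not given in the sources used here.

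SLC40A1, which also carries a 5′ hairpin, was the least abundant of the 7, with 13 to 44 reads in any library. In Input Ctrl 1 to 4 it had 2.69, 2.62, 2.31 and 1.71 CPM, and in Polysome Ctrl 1 to 4 it had 1.58, 1.24, 1.51 and 1.02 CPM. After scaling, all Polysome libraries lay below all Input libraries. In plain reads they overlapped, with 19 of 11145324 reads in Polysome Ctrl 1 and 18 of 13461862 in Input Ctrl 4. On the log2 scale SLC40A1 was at -0.80 (standard error 0.28, adjusted p = 0.0262 by edgeR), and the call was lost without Input Ctrl 1, Input Ctrl 2, Polysome Ctrl 2 or Polysome Ctrl 4 (adjusted p = 0.0554 to 0.0744 by edgeR).

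In siRNAG5 cells, SLC40A1 had 1.13, 1.61, 1.74 and 2.21 CPM in Input 1 to 4 and 1.54, 0.885, 1.65 and 2.03 CPM in Polysome 1 to 4. These groups overlapped widely. The log2 FC was -0.16 (standard error 0.26, adjusted p = 0.627 by edgeR). Loading in siRNAG5 minus loading in Ctrl was 0.64, with a 95% interval from -0.16 to 1.44 (adjusted p = 0.769 by edgeR), so a difference between the treatments was not detectable at this depth.

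The mRNAs with 3′ hairpins were not called. TFRC had 30.8, 22.9, 27.5 and 28.5 CPM in Input Ctrl and 19.6, 17.6, 26.6 and 26.9 CPM in Polysome Ctrl, with overlap. Its log2 FC was -0.27 in Ctrl (standard error 0.21, adjusted p = 0.306 by edgeR) and -0.45 in siRNAG5 (standard error 0.20, adjusted p = 0.0651 by edgeR). The value in siRNAG5 turned on single libraries. TFRC was at 13.7, 27.4, 24.9 and 16.2 CPM in Polysome siRNAG5 1 to 4, low in replicates 1 and 4. It was called without Input siRNAG5 1 (-0.57, adjusted p = 0.0327 by edgeR) or without Polysome siRNAG5 2 (-0.59, adjusted p = 0.0191 by edgeR), and came to -0.08 (adjusted p = 0.689 by edgeR) without the 3 Polysome libraries that stood apart.

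SLC11A2 was the most even of the 7, between 12.04 and 16.9 CPM in all 16 libraries. The log2 FC of Polysome against Input was -0.12 in Ctrl (standard error 0.12, adjusted p = 0.478 by edgeR) and 0.24 in siRNAG5 (standard error 0.12, adjusted p = 0.0948 by edgeR).

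On the scaled CPM, the mRNAs of the iron regulatory proteins, in which no hairpin was found, had loading values of opposite sign. ACO1 had 16.4, 16.6, 18.1 and 19.5 CPM in Input Ctrl and 7.58, 8.72, 10.2 and 10.7 CPM in Polysome Ctrl. After scaling, every Polysome library lay below every Input library. In plain reads they overlapped, with 182 of 14326270 reads in Polysome Ctrl 3 and 222 of 18053614 in Input Ctrl 2. Loading was -0.92 in Ctrl (standard error 0.17, adjusted p = 0.000232 by edgeR) and -1.02 in siRNAG5 (standard error 0.16, adjusted p = 3.55e-05 by edgeR). In plain reads the siRNAG5 groups overlapped as well. Polysome siRNAG5 2 had 341 of 16365110 reads, a larger share than the 433 of 22335081 in Input siRNAG5 4. The size of the ACO1 values therefore rests on the scaling between the fractions.

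IREB2 had 18.5, 16.4, 16.2 and 18.2 CPM in Input Ctrl and 21.8, 25.5, 36.8 and 35.1 CPM in Polysome Ctrl. Here every Polysome library lay above every Input library, with a wider spread in Polysome. Its loading was 0.79 in Ctrl (standard error 0.19, adjusted p = 0.00229 by edgeR) and 1.04 in siRNAG5 (standard error 0.19, adjusted p = 0.000105 by edgeR).

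The ratio of IREB2 to ACO1 reads within a library, which no scaling touches, was 0.897 to 1.13 in Input Ctrl and 2.88 to 3.62 in Polysome Ctrl. In siRNAG5 it was 0.672 to 0.93 in Input and 3.30 to 3.69 in Polysome. The fractions were thus separated in both treatments. The ratio of FTH1 to TFRC reads, a storage mRNA against an uptake mRNA, was 124.6 to 179.2 in Input Ctrl and 6.21 to 15.3 in Polysome Ctrl, and in siRNAG5 it was 85.7 to 150.0 and 6.35 to 19.4.

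In siRNAG5 cells, 3 of the 7 mRNAs (FTH1, FTL and ACO1) were called lower in Polysome than in Input, against 25.4% of all genes, and 1 (IREB2) was called higher, against 21.5%. On the scaled CPM, the groups did not overlap for these 4, against 50% of all genes. The median over all genes was itself -0.12 there, and lay between -0.14 and -0.02 under the alternatives, so every log2 FC in that contrast can be read against it. Without the 3 Polysome libraries that stood apart, the loading in siRNAG5 was -4.18 for FTH1, -4.55 for FTL, -0.69 for ACO1 and 1.35 for IREB2, and each kept its call.

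The second question of the design is what silencing of Gemin5 did to these mRNAs. In Input, 0 of the 7 were called lower and 0 higher, where 6.02% and 10.5% of the 14134 genes tested were. The groups did not overlap for 2 of the 7 (FTH1 and FTL), against 34.2% of all genes. With no minimum on the log2 FC, 3 of the 7 (FTH1, FTL and ACO1) passed the adjusted p, where 37% of all genes did, so this count was near the background. The median log2 FC was -0.14 over the 7 and 0.04 over all genes.

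FTH1 had 3168, 3100, 3183 and 2940 CPM in Input siRNAG5 1 to 4, below the 3643 CPM of the lowest Input Ctrl library. The log2 FC was -0.31 (95% interval -0.43 to -0.20, adjusted p = 7.96e-05 by edgeR), a small difference resolved in the main fit against replicates that varied little. Under the alternatives its adjusted p rose as high as 0.203 by edgeR. FTL had 1398, 1429, 1379 and 1376 CPM in Input siRNAG5, below the 1526 CPM of the lowest Ctrl library. Its log2 FC was -0.15 (95% interval -0.27 to -0.04, adjusted p = 0.0335 by edgeR).

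Ferritin mRNAs are abundant in liver, and liver reads were present in Input Ctrl 3 and 4. In those libraries FTL had 1588 and 1531 CPM, against 1526 and 1616 CPM in Input Ctrl 1 and 2, which had almost none. Without Input Ctrl 3 and 4, FTH1 was at -0.35 (adjusted p = 0.000345 by edgeR) and FTL at -0.16 (adjusted p = 0.0978 by edgeR). Within a library, FTH1 reads were 2.38 to 2.54 times FTL reads in Input Ctrl and 2.14 to 2.31 times in Input siRNAG5, without overlap. The order was turned in Polysome, where the ratio was 2.32 to 2.69 in Ctrl and 2.66 to 2.99 in siRNAG5, with overlap. Adding the reads of the pseudogenes to their parent genes moved the group means of the ratio by less than their SD.

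ACO1 had 20.9, 20.1, 19.4 and 22.8 CPM in Input siRNAG5. The lowest of these lay just below the 19.5 CPM of the highest Ctrl library. The log2 FC was 0.25 (95% interval 0.05 to 0.45, adjusted p = 0.0438 by edgeR). IREB2 was at 0.01 (95% interval -0.21 to 0.23, adjusted p = 0.946 by edgeR), with 14.1, 18.7, 17.2 and 19.04 CPM in siRNAG5 on either side of the Ctrl values.

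The transporters gave no difference beyond their spread in Input. TFRC was at 0.06 (95% interval -0.18 to 0.29, adjusted p = 0.731 by edgeR). SLC11A2 was at -0.14 (95% interval -0.36 to 0.08, adjusted p = 0.34 by edgeR). SLC40A1 was at -0.45 with an interval too wide to place it, from -0.94 to 0.04 (adjusted p = 0.144 by edgeR), on 106 reads in Ctrl and 118 in siRNAG5.

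In Polysome, again 0 of the 7 were called lower and 0 higher, where 4% and 3.95% of the 14420 genes tested were, and the groups overlapped for all 7, against 18.3% of genes whose groups did not overlap. The spread between replicates was wider there, so the intervals were too. FTH1 had 265.4, 176.1, 157.9 and 246.9 CPM in Polysome siRNAG5 1 to 4, and the groups overlapped, with 1 siRNAG5 library below the Ctrl range and none above it. Its log2 FC was 0.01 (95% interval -0.45 to 0.47, adjusted p = 0.98 by edgeR). FTL, at 100.0, 63.5, 52.7 and 89.6 CPM, had a log2 FC of -0.14 (95% interval -0.63 to 0.35, adjusted p = 0.729 by edgeR). Both ferritin mRNAs were high in Polysome siRNAG5 1 and 4, which are among the 3 libraries that stood apart. Liver reads were present in every Polysome Ctrl library and nearly absent from every siRNAG5 library, so that their part in this contrast cannot be told apart from that of the treatment. Without the 3 libraries that stood apart, FTH1 came to -0.29 (adjusted p = 0.321 by edgeR) and FTL to -0.45 (adjusted p = 0.109 by edgeR).

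IREB2 had 32.1, 43.3, 42.9 and 23.3 CPM in Polysome siRNAG5. The log2 FC was 0.30 (95% interval -0.19 to 0.78, adjusted p = 0.415 by edgeR). Without the 3 libraries it was 0.47 (adjusted p = 0.0421 by edgeR), still within the 0.5 limit. ACO1, at 8.71, 13.1, 12.2 and 6.92 CPM, was at 0.19 (95% interval -0.28 to 0.66, adjusted p = 0.611 by edgeR). Without the 3 libraries ACO1 was at 0.42 (adjusted p = 0.0751 by edgeR).

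SLC11A2, at 13.2, 16.9, 16.2 and 15.9 CPM in Polysome siRNAG5 against 12.04 to 15.2 CPM in Ctrl, was at 0.25 (95% interval -0.07 to 0.56, adjusted p = 0.292 by edgeR). SLC40A1 was at 0.22 (95% interval -0.43 to 0.87, adjusted p = 0.675 by edgeR). TFRC was at -0.10 (95% interval -0.60 to 0.41, adjusted p = 0.823 by edgeR).

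The difference of the 2 silencing effects, Polysome less Input, was tested directly. The test called 0 of the 7, as it called 0% of the 14958 genes, although 1089 genes had an unadjusted p under 0.05 and DESeq2 called 12 lower and 16 higher. Without the 3 Polysome libraries that stood apart, 659 genes were called lower and 106 higher, and with 1 surrogate variable 297 were called lower and 78 higher. In the main fit, no member had an unadjusted p under 0.05. The difference was 0.30 for FTH1 (95% interval -0.20 to 0.80) and -0.01 for FTL (95% interval -0.53 to 0.51). For SLC11A2 it was 0.36, with an interval from -0.01 to 0.72 (unadjusted p = 0.0532, adjusted p = 0.695 by edgeR). The other 4 lay between -0.18 for TFRC and 0.64 for SLC40A1. Without the 3 libraries, SLC11A2 was at 0.45 and IREB2 at 0.43 (adjusted p = 0.146 and 0.176 by edgeR).

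**Figure D5:**
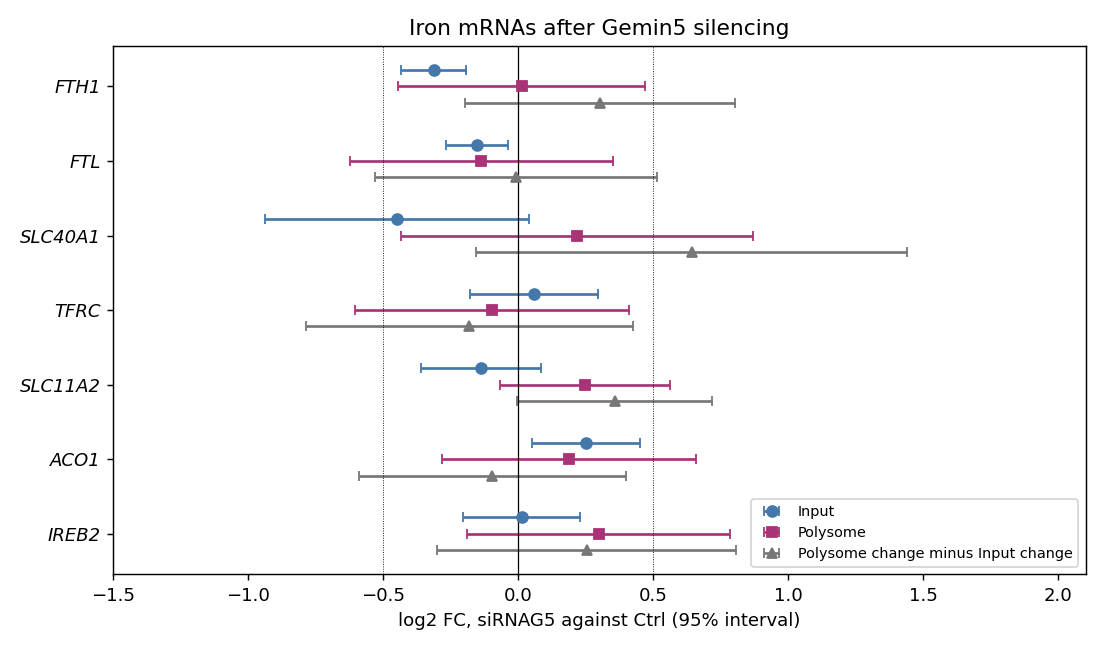
Log2 FC of siRNAG5 against Ctrl with 95% intervals for each mRNA in Input and in Polysome, and for the Polysome less the Input value, dotted lines at 0.5 either side of 0. Only the Input intervals of FTH1, FTL and ACO1 exclude 0, all 3 lying within 0.5 of it.

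Ends of the mRNAs that could link them to the study's other themes were looked up. A 5′ terminal oligopyrimidine tract marks ribosomal protein mRNAs, and none of the 7 annotated 5′ ends started with C and 4 more pyrimidines, as 4.63% of 19701 annotated starts did. The letters AAGAGAA, complementary to the seed of the Gemin5 siRNA (bases 2 to 8 of the strand antisense to the mRNA), occurred once in the 3′UTRs of TFRC and IREB2 and in none of the other 5, where 22.9% of 3′UTRs held them.

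The mRNAs whose levels were most like each member over the 16 libraries were found by Pearson correlation of log2 CPM, a measure dominated by the contrast of fractions. FTH1 was most like FTL (0.999), FTLP3 (0.99) and MT-ND3 (0.989), and FTL, after FTH1, was most like RPS2 (0.989) and RPS2P5 (0.989). ACO1 was most like CDK5RAP2, PDCD6IP and PTCD3 (0.984 to 0.99). IREB2 was most like LRRFIP1, PHF6 and ACBD3 (0.98 to 0.984). TFRC was most like PRKCD, CLK2 and RBM25 (0.901 to 0.935), SLC40A1 like DLEU2, KDSR and ISCA1 (0.812 to 0.872), and SLC11A2 like no gene above 0.70. All points share libraries and depth, and the correlations are descriptive.

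Other mRNAs for which an iron-responsive element has been reported did not share the position of the ferritins. Of 9 listed, 7 were tested, and in Ctrl 2 were called lower in Polysome and 3 higher, against 18.2% and 19.4% of all genes. Among the lower was the amyloid precursor mRNA APP, at -0.67 (adjusted p = 0.018 by edgeR). The hypoxia factor mRNA EPAS1 was at 1.18, CDC42BPA at 1.05 and PFN2 at 0.55. In siRNAG5, the same 2 were lower and CDC14A joined the 3 that were higher, at 1.58 (adjusted p = 2.19e-05 by edgeR). There 25.4% of all genes were lower and 21.5% higher. ALAS2, whose 5′ hairpin matched the search, had 0 reads in all libraries. The list's median loading was 0.55 in Ctrl. For silencing, 0 of the 7 were called in Input and 0 in Polysome.

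Of the 7 mRNAs whose proteins control the iron regulatory proteins, among them the iron-sensing ubiquitin ligase subunit FBXL5, 0 were called after silencing in Input or in Polysome. FBXL5 was at 0.16 in Input and 0.35 in Polysome (adjusted p = 0.189 and 0.145 by edgeR). In the loading contrast, the ubiquitin ligase mRNA HERC2 was called lower in Ctrl (-1.03, adjusted p = 6.25e-05 by edgeR), and HERC2 and CUL1 in siRNAG5. This was 1 of 7 in Ctrl and 2 of 7 in siRNAG5, against 18.2% and 25.4% of all genes.

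Of 20 mRNAs of iron uptake, storage and export, 13 were tested in Input, where 6.02% of all genes were called lower and 10.5% higher. Silencing called 3 of the 13 lower and 0 higher. They were HMOX2, a heme oxygenase, at -0.62, FLVCR1, reported as a heme or choline transporter, at -0.94 and MCOLN1, a lysosomal channel, at -0.51 (adjusted p = 3.69e-08, 5.53e-06 and 0.00199 by edgeR). In Polysome 5 of 15 were called lower and 0 higher, against 4% and 3.95% of all genes. Only 2 were called without Polysome Ctrl 2, and 3 without Polysome Ctrl 4, siRNAG5 1 or siRNAG5 2. HMOX2 was at -0.83, FLVCR1 at -0.73 and the iron chaperone mRNA PCBP1 at -0.68 (adjusted p = 0.0154, 0.0327 and 0.0469 by edgeR). The other 2, TF and CP, encode plasma proteins of the liver. They had 322 and 127 reads over the Polysome Ctrl libraries and 0 and 1 over the siRNAG5 libraries, the same libraries in which the liver markers were present and absent. TF and CP passed the filter on low counts only through Polysome Ctrl, and not in Input. Their direction was thus set by the filter, and their calls are not read as a result of silencing. NCOA4, the ferritin receptor of autophagy, was at 0.21 in Input and 0.44 in Polysome (adjusted p = 0.0505 and 0.136 by edgeR). In the loading contrast 2 of 15 were called lower and 1 higher in either treatment. Of all genes, 18.2% were lower and 19.4% higher in Ctrl, and 25.4% and 21.5% in siRNAG5. NCOA4 (-0.67) and MCOLN1 (-0.53) were lower in Ctrl, PCBP2 (-0.67) and PCBP1 (-0.53) in siRNAG5, and SLC39A14, a metal transporter, was higher in both (0.89 and 0.54).

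Iron-sulfur cluster assembly had 21 of 22 mRNAs tested. Silencing called 3 lower (among them NUBP1 at -0.58 and BOLA3 at -0.54) and 1 higher (FDXR at 0.73, adjusted p = 2.84e-08 by edgeR) in Input. Of all genes, 6.02% were called lower and 10.5% higher there. In Polysome silencing called 2 lower, NUBP1 (-0.61) and IBA57 (-0.55), and 2 higher, among them FDXR (0.66). The shares of all genes were 4% and 3.95%. FDXR, the reductase that feeds electrons to cluster assembly, had 52.5 to 59.9 CPM in Input Ctrl and 80.6 to 104.4 CPM in Input siRNAG5. In the loading contrast 7 of 21 were called lower and 0 higher in Ctrl, and 9 and 0 in siRNAG5, where 18.2% and 25.4% of all genes were lower and 19.4% and 21.5% higher, with BOLA3 at -1.40, MMS19 at -1.22 and HSPA9 at -1.07 in Ctrl. The list's median was -0.29 in Ctrl. Of 8 heme synthesis mRNAs, UROS alone was called after silencing, at -0.62 in Input (adjusted p = 8.74e-08 by edgeR). This was 1 of 8 lower in Input, against 6.02% of all genes. In the loading contrast UROS, UROD and PPOX were called lower in both treatments, at -0.86, -0.73 and -0.78 in Ctrl, and FECH higher in siRNAG5 at 0.67. These were 3 of 8 lower in each treatment and 1 of 8 higher in siRNAG5, beside the shares of all genes given above. For the difference between the fractions, 0 mRNAs of any of the 5 lists were called.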

How the data were processed

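Polyadenylated RNA was sequenced from stranded libraries. The authors aligned reads to GRCh38 (Ensembl release 91) with STAR 2.5.3a and counted them per gene with QoRTs. The deposited values are whole-number read counts without normalization. Reads listed apart from genes were left out. Members and lists were chosen with earlier results of these data known.

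Genes were filtered (filterByExpr), scaled by TMM and tested with the quasi-likelihood test of edgeR 4.0.16 (R 4.3.3), with Benjamini-Hochberg adjustment over all genes. Treatments were compared within each fraction (8 libraries). Fractions, and the difference of the treatment effects, were compared in one fit of the 16 libraries, so that these contrasts share libraries. A gene was called where the adjusted p was below 0.05 with a log2 FC more than 0.5 from 0. Overlap was judged on CPM. Named were the members, called list genes without overlap (at most the 4 largest per list, or all where 5 or fewer were counted), the 3 most similar genes of each member, ferritin pseudogenes and GEMIN5. Some list genes that this rule names are not reported here. Values given for FBXL5, NCOA4 and BEST1 were chosen after they were seen. Gene models were those of GENCODE v44, a later annotation of the same build. Alternatives were DESeq2 1.42.0, RLE factors, no filter, no minimum log2 FC, the replicate number as a block, other sets of libraries and 1 surrogate variable (sva 3.50.0). Scripts were tested on simulated counts.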

Additional observations from a re-analysis of the deposited data

How the results depend on the processing

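Of 616 member values recomputed under the alternatives, 571 kept both direction and call, 10 changed the call and 35 changed sign, and no value that changed sign was called before or after. FTH1, FTL, ACO1 and IREB2 kept their loading calls under every alternative run, in both treatments. All of these alternatives scaled the libraries. The counts of members called after silencing stayed at 0 under every alternative in Polysome and for the difference. In Input, dropping the minimum log2 FC called 3 of the 7, and 37% of all genes. The adjusted p of these 3 in Input was not stable. Across the alternatives it rose as high as 0.203 for FTH1, 0.573 for FTL and 0.36 for ACO1 by edgeR. Values that changed sign were at most 0.286 in size. In Input, IREB2 went to -0.011 with DESeq2, -0.0048 with all 16 libraries in one fit and -0.0029 without Input Ctrl 3 and 4. In Polysome, FTH1 went to -0.021 with DESeq2, -0.019 with RLE factors, -0.026 with all 16 libraries and -0.29 without Polysome Ctrl 1, siRNAG5 1 and siRNAG5 4, and TFRC went to 0.20 without these 3. For the difference, FTL went to 0.029 with DESeq2, 0.024 with RLE factors and 0.028 with no filter, and without the 3 libraries TFRC went to 0.11 and ACO1 to 0.14. The cause was not tested. With 1 surrogate variable TFRC was called lower in Polysome of siRNAG5 (-0.71).

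With each library left out in turn, values whose sign changed ranged as follows. In Input, TFRC lay between -0.059 and 0.17 and IREB2 between -0.045 and 0.094. In Polysome, FTH1 lay between -0.11 and 0.16, FTL between -0.29 and 0.022 and TFRC between -0.26 and 0.061. SLC40A1 loading in siRNAG5 lay between -0.32 and 0.078. For the difference, FTL lay between -0.16 and 0.16 and ACO1 between -0.22 and 0.051.

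Over all genes, dropping the minimum log2 FC raised the calls in Input from 2330 to 5230. In Polysome, 1146 became 1971 with DESeq2 (1200 lower and 771 higher, so that 39.1% of calls were higher against 49.7%), 1766 with no filter, 2597 with all 16 libraries in one fit, 3115 without the 3 libraries and 2966 with 1 surrogate variable, and between 189 (without Polysome Ctrl 2) and 1523 (without Polysome siRNAG5 4) with 1 library left out. For the difference, 0 became 28 with DESeq2, 57 with no filter, 765 (659 lower) without the 3 libraries, 375 (297 lower) with 1 surrogate variable, 9 without Input Ctrl 3 and 4, and 0 to 1 with 1 library left out.

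Both fractions were taken from individual lysates, but no source used here says that the replicate numbers name the lysate. Deviations of same-numbered Input and Polysome libraries correlated between -0.07 and 0.19 in Ctrl and between -0.21 and 0.22 in siRNAG5. Across the treatments they correlated between -0.53 and 0.48 in Polysome and between -0.03 and 0.07 in Input. The numbers were therefore not taken to pair the samples. With the replicate block, 0 members were called after silencing in either fraction, 5 in the loading of Ctrl and 4 in that of siRNAG5, and the log2 FC of FTH1 and FTL in Ctrl was -4.19 and -4.21. Counts for the lists moved more, as for iron-sulfur cluster assembly in Polysome, from 4 called to between 1 and 14.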
